A study of Homo sapiens with 4 samples.

Results

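The 6 zinc finger genes described here lie on chromosome 19 near peaks of the zinc finger protein ZNF416: ZNF181, ZNF790, ZNF260, ZNF20, ZNF274 and ZNF43. Their rows were selected by gene name from 1 list of 1386 ChIP-seq peaks, and 9 peaks carried the name of one of these 6 genes. The names come from the same list that is described, so the position and score of a peak are a description here and carry no test. The cells were IMR90, a line of human lung fibroblasts, which stably expressed FLAG-tagged ZNF416 from a lentiviral vector under puromycin selection. All libraries came from such cells: 2 FLAG pull-downs and 2 inputs (sheared chromatin without pull-down), with no pull-down from untagged cells among them. Only 1 list of peaks was analysed here, which gives neither a value per library nor a read depth, so errors between replicates cannot be stated.

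KRAB zinc finger proteins bind DNA through tandem C2H2 fingers, and the KRAB domain recruits the corepressor TRIM28, which brings the histone methyltransferase SETDB1 and silences chromatin, often over transposable elements. Their genes arose by tandem duplication and stand in large clusters on chromosome 19, where many share a promoter with a neighbour or an antisense transcript. ZNF416 itself is encoded in such a cluster. The KRAB part of the label was not checked, since protein sequences were not analysed here. ZNF260 is usually described as a protein built almost wholly of zinc fingers, without a KRAB domain, so the genes are called ZNF genes below. ZNF274 carries a SCAN domain beside its KRAB domains and is known for sitting on the 3′ exons of other zinc finger genes together with TRIM28 and SETDB1.

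The 3 members with the strongest peaks, ZNF181, ZNF790 and ZNF260, had a short stretch in common at their promoters. It reads CTGGGAA, the centre of the site known for the general promoter factor ZNF143. The stretch was noticed on reading these sequences, so its presence in them is not a test. Sequences are those of RefSeq on GRCh38.p14, taken from windows of 250 bases before to 50 bases after annotated gene starts. The peaks are on hg19, and no coordinate was carried from one build to the other. Only the spacing between starts was compared, for ZNF790 and ZNF254. Whether a peak covers a given base was therefore not read directly, and only distances from the starts are set side by side below. The matches are shown with 10 bases on each side, read in the direction of CTGGGAA, which is in capitals. The first 6 belong to members. ZNF546 and ZNF254 are other ZNF genes with a promoter peak, and ZNF566 and ZNF230 are ZNF genes whose promoter peaks carried a neighbour's name. Judged by spacing from the ZNF43 start, the ZNF254 window lies at another start than the TSS of its peaks. The ZNF254 match is therefore not from the promoter that has the peaks.
ZNF181 (chr19:34734119-34734145, plus strand): gcagagactcCTGGGAAgtgtggtctt
ZNF181 (chr19:34734188-34734214, plus strand): gcggatgattCTGGGAAatgtcgatcg
ZNF260 (chr19:36528379-36528405, minus strand): gctgaaccttCTGGGAAatgtagtcta
ZNF790 (chr19:36838427-36838453, plus strand): acggtgcactCTGGGAAatgtagtccg
ZNF790 (chr19:36850274-36850300, minus strand): gcagggtctcCTGGGAAacgtagtcca
ZNF790 (chr19:36850787-36850813, minus strand): ctagaggcttCTGGGAAgtgtagtcca
ZNF546 (chr19:39997030-39997056, minus strand): caaggggcttCTGGGAAatgtagtcca
ZNF254 (chr19:24087114-24087140, plus strand): ggacgttgggCTGGGAActgtccaatc
ZNF566 (chr19:36489602-36489628, plus strand): gaggagacctCTGGGAAgcgtagtcag
ZNF230 (chr19:44002829-44002855, plus strand): cgagtgaattCTGGGAActgtagtcca
ZNF230 (chr19:44002899-44002925, plus strand): ccggggaattCTGGGAAgtggagtcca

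The 3 matches of ZNF790 belong to its 3 annotated starts and lay 56, 5 and 11 bases before them. Distances are counted from the end of CTGGGAA farthest from the start, so the match at 5 bases runs across its start. Judged by the spacing of starts given below, the ZNF790 peaks stand only at the first of the 3 starts. The match of ZNF260 lay 124 bases before its start, and those of ZNF181 lay 114 and 45 bases before. If the deposited TSS is the same start, none of these matches lay under its gene's promoter peaks. The ZNF181 peak, 208 bp wide, was centred 150 bp downstream. The ZNF260 promoter peak, 107 bp wide, was centred 290 bp upstream. The ZNF790 peaks, 124 and 206 bp wide, were centred 179 and 461 bp upstream. Searched on both strands, CTGGGAA was present at 3 of 6 members and absent from the windows of ZNF20, ZNF274 and ZNF43. It was present at 33.8% of 216 chromosome 19 ZNF genes and at 14.1% of 15842 protein-coding genes with a window. A longer form, CTGGGAANNGTAGTC, which overlaps the short one, was present at ZNF260 and ZNF790, that is at 2 of 6 members. Of the 216 chromosome 19 ZNF genes 24 held it (11.1%), against 0.505% of protein-coding genes. Among the chromosome 19 ZNF genes with a promoter peak by name and a window, 3 of 9 held it: ZNF260, ZNF790 and ZNF546. ZNF566 and ZNF230, whose peaks carried a neighbour's name, held it too, which makes 5 of 11. Both counts include ZNF254, whose window lies at another start than its peaks. Of the 205 other chromosome 19 ZNF genes 19 held the longer form (9.27%). The form was chosen from these promoters, so the higher share at genes with a peak was not tested. Among 215 protein-coding genes outside the family that had a promoter peak, 1 held it (0.465%).

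Upstream of ZNF181 and of ZNF260, whose starts had no divergent partner, the 250 bases before the start read as follows, in the direction of the gene, with CTGGGAA in capitals.
ZNF181 (chr19:34733993-34734242, plus strand): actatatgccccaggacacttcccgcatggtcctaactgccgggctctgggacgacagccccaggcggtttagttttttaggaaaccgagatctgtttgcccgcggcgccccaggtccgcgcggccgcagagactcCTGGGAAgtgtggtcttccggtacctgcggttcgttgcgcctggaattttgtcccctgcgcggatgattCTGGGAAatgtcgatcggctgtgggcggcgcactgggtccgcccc
ZNF260 (chr19:36528272-36528521, minus strand): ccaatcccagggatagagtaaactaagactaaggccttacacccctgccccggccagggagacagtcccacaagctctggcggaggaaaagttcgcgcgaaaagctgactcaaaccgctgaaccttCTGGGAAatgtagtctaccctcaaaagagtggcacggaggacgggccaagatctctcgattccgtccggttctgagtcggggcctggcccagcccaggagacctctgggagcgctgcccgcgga

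The GC content of these stretches was 62.8% for ZNF181 and 59.6% for ZNF260, with 23 and 15 CpG dinucleotides. Over the 8 windows of the 6 members the GC content ran from 52.7% to 64.3% (median 59.3%), close to the median of 60.0% over 268 windows of chromosome 19 ZNF genes. The GC box (GGGCGG, both strands) was present in 6 of 8 member windows, against 64.9% of chromosome 19 ZNF windows and 45.0% of all 35116 windows. The ETS core CCGGAAG was present in 4 of 8, against 40.7% and 10.3%. A CCAAT box was present in 4 of 8, against 134 of 268 and 34.6%. In base composition and in these words the member windows resembled those of their family. Several windows can belong to 1 gene, so windows are not independent of each other.

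ZNF790 was the member with a shared promoter, at a start other than that of its peaks. Its neighbour ZNF345 starts on the opposite strand, and the closest pair of their starts was 79 bases apart. The same layout was found at ZNF566 with the antisense gene ZNF566-AS1 (65 bases) and at ZNF230 with the divergent transcript ZNF230-DT (86 bases), and on chromosome 17 at ZNF232 with ZNF232-AS1 (56 bases). These stretches between the starts are shown on the plus strand, with CTGGGAA in capitals. A promoter peak lay at each pair but the first, since the ZNF790 peaks lay at another ZNF790 start. The first stretch has no capitals because the ZNF790 match there runs across its left edge, and the last holds no match.
ZNF790 and ZNF345 (chr19:36850286-36850364, plus strand): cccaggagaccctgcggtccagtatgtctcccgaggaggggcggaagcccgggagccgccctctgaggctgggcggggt
ZNF566 and ZNF566-AS1 (chr19:36489562-36489626, plus strand): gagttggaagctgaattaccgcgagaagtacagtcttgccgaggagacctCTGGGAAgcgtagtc
ZNF230-DT and ZNF230 (chr19:44002871-44002956, plus strand): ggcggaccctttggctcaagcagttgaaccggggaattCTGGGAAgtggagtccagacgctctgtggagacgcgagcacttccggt
ZNF232 and ZNF232-AS1 (chr17:5111879-5111934, plus strand): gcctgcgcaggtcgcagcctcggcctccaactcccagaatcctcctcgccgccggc

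A head-to-head start of another gene within 1 kb was annotated for 1 of the 6 members, ZNF790. This was so for 19.9% of 216 chromosome 19 ZNF genes and for 22.1% of protein-coding genes. With 1 gene of 6 the members cannot be told apart from these shares. The authors' annotation assigned 2 peaks to ZNF790, and their deposited distances give the same TSS for both. The spacing of this TSS from that of the ZNF260 promoter peak matches the ZNF790 start at chr19:36838387 on GRCh38. The ZNF790 start that faces ZNF345 is another, at chr19:36850285. The ZNF790 peaks therefore do not stand at the stretch shared with ZNF345.

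ZNF181 had the highest score among the members. The score is the authors' whole number per peak, of unstated scale, and it ranks peaks within this list only. The ZNF181 peak scored 121 and ranked 157 of 1386, and 11.7% of the list scored at least as high. It lay in exon 1 of 4, in the 5′ UTR, with its centre 150 bp downstream of the transcription start site (TSS), at chr19:35225195-35225402 on hg19. It was also the widest member peak, at 208 bp, against a list median of 145 bp.

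ZNF790 followed, with 2 peaks on the upstream side of its TSS. The stronger scored 103, ranked 232 and was centred 179 bp upstream (chr19:37329407-37329530). The weaker scored 35, ranked 1144 and was centred 461 bp upstream (chr19:37329648-37329853). A gap of 117 bp separated them, and the peak nearer to the TSS scored higher.

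ZNF260 had 1 peak at its promoter and 1 far from it. The promoter peak scored 63, ranked 650 and was centred 290 bp upstream (chr19:37019410-37019516). At 107 bp it was the narrowest of the member peaks. The other scored 27, ranked 1255 and was centred 19236 bp upstream (chr19:37038333-37038485). By the annotated transcript, that position is in exon 6 of 6 of the neighbouring gene ZNF529, so the name ZNF260 follows from the nearest TSS and not from the gene that holds the peak.

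The other 3 members had weak peaks. The ZNF20 peak scored 31, ranked 1195 and was centred 809 bp upstream of the TSS (chr19:12251919-12252030). The ZNF274 gene held 2 peaks: one of score 21 in exon 2 of 9, 911 bp downstream of the TSS (chr19:58695279-58695399), and one of score 32 in intron 4 of 8, 7682 bp downstream (chr19:58702027-58702194). Its promoter peak was the weakest of the members, ranking 1332, and 97.3% of the list scored at least as high. ZNF43 had no promoter peak. Its only peak scored 38, ranked 1088 and lay 11202 bp downstream of the TSS in intron 1 of 3, on an AluSq2 repeat (chr19:22007716-22007849).

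Of the 9 member peaks, 6 lay within 1 kb of a TSS, at 5 of the 6 genes. Over the whole list 29.1% of the 1145 peaks with a TSS distance lay that close (30.5% on assembled chromosomes), and 1.34% of protein-coding genes had such a peak. Nothing is read from the members' count, since the genes were chosen from this list. ZNF20 and ZNF274 stood just inside the 1 kb limit, at 809 and 911 bp, and the next member peak outside it was that of ZNF274 at 7682 bp. Within 500 bp, 3 genes were left: ZNF181, ZNF790 and ZNF260.

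Most member peaks scored low in the list. Of the 9, 3 reached the list's median score of 62, where 50.4% of all peaks did, and 2 reached the upper quartile of 87. Their median score was 35, or 50.5 for the strongest peak of each gene. The scores split into 3 promoter peaks from 63 to 121 and 6 peaks from 21 to 38, with nothing between.

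**Figure D1:**
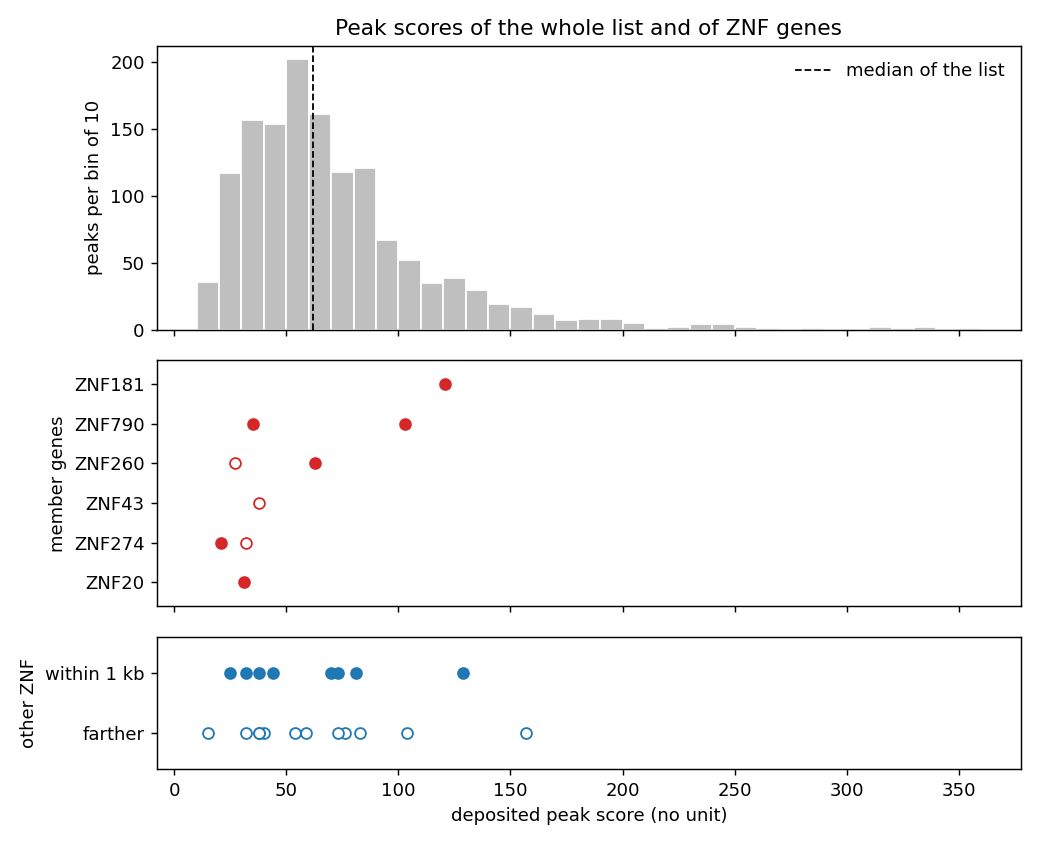
Deposited peak scores (x axis, no unit): the top panel counts all 1386 peaks in bins of 10 with the median of 62 dashed, the middle panel shows each member peak by gene, and the bottom panel shows the peaks of other ZNF genes. Filled points lie within 1 kb of a TSS and open points farther away; 3 member peaks stand above the median and 6 below 40.

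The other rows whose gene name begins with ZNF and a digit numbered 20 peaks at 16 genes. Their scores ran from 15 to 157 with a median of 56.5, and 9 of 20 reached the list's median. The ranges of both groups overlapped almost fully, and the members' upper end of 121 was passed by 2 of the other peaks. These were a peak of score 157 in an intergenic CpG island 24900 bp downstream of the ZNF786 TSS on chromosome 7 (chr7:148762819-148763001) and the ZNF233 promoter peak of score 129 (chr19:44763838-44763982).

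The groups also differed by chromosome, though the choice of members by name fixed theirs. All 9 member peaks lay on chromosome 19, and so did 9 of the other 20. Of the other peaks on chromosome 19, 7 of 9 were promoter peaks, at 5 genes. Away from chromosome 19, 1 of 11 was, at ZNF251. Of the 246 protein-coding ZNF genes on chromosome 19, 10 had a promoter peak, 4.07% (exact Clopper-Pearson 95% interval 1.97 to 7.35). Of the 263 on other chromosomes 1 did, 0.380% (0.00963 to 2.10). Among 1205 other protein-coding genes of chromosome 19 the share was 1.16% (0.637 to 1.94). Members make up 5 of those 10 genes, and they were picked for their peaks. Without them the chromosome 19 share was 5 of 240 genes, 2.08% (0.680 to 4.79), an interval that holds the share of the other chromosome 19 genes. These counts go by the name of the nearest TSS. With peaks of the authors' promoter class also counted for the gene of their transcript, a count added after seeing the data, it was 8 of 240 genes, 3.33% (1.45 to 6.46), and that interval lies above the share of the other chromosome 19 genes, still 1.16%. By this count 1.43% of all protein-coding genes had a promoter peak. Without the members, the reading against other chromosome 19 genes thus turns on 3 peaks that carry a neighbour's name. Dropping genes that were picked for their peaks lowers a share by construction, so neither share without them decides this reading. With the members kept, the interval of 1.97 to 7.35 lies above 1.16%, but it rests in part on those picked genes. The difference was not tested. The intervals cover counting of genes only.

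The 6 other ZNF genes with a promoter peak were ZNF233, ZNF546, ZNF254, ZNF251, ZNF724 and ZNF486. ZNF546 had peaks of score 81 and 70 at 297 and 111 bp downstream of its TSS, both in a CpG island of intron 1 (chr19:40503211-40503317 and chr19:40503014-40503143). ZNF254 had peaks of score 73 and 25 at 322 and 506 bp downstream (chr19:24216514-24216633 and chr19:24216701-24216814). ZNF724 scored 38 at 351 bp and ZNF486 scored 32 at 350 bp downstream, also in intron 1. ZNF251 scored 44 at 701 bp downstream. ZNF233, the strongest of them, was the exception, with its peak 123 bp upstream.

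The 12 other peaks credited to ZNF genes outside the members lay from 1885 to 43159 bp from a TSS. ZNF771 was the nearest to the 1 kb limit, with a peak of score 76 at 1885 bp downstream on chromosome 16. ZNF827, on chromosome 4, had a peak of score 83 in intron 1, 2674 bp downstream. The second ZNF251 peak scored 73 and lay 11810 bp upstream on an AluJb repeat. The remaining distant peaks, beside those of ZNF786 and ZNF8, belonged to ZNF212, ZNF655, ZNF287, ZNF592, ZNF7 and ZNF469 and scored from 15 to 59. Repeats lay under 4 of the 20 other ZNF peaks and under 1 of the 9 member peaks, that of ZNF43. Over the list, repeats lay under 241 of the 1142 peaks with a gene name, so no trait is read from these small counts.

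The side of the TSS was another difference in counts. Of the members' 6 promoter peaks, 4 lay upstream and 2 downstream. Of the 8 of other ZNF genes, 1 lay upstream and 7 downstream, and over all 333 promoter peaks 206 lay downstream. The upstream member peaks belong to 3 genes, and no test was made on so few. The authors' promoter class, which reaches farther upstream than downstream, thus held 3 of the members' genes and 1 of the others, ZNF233.

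**Figure D2:**
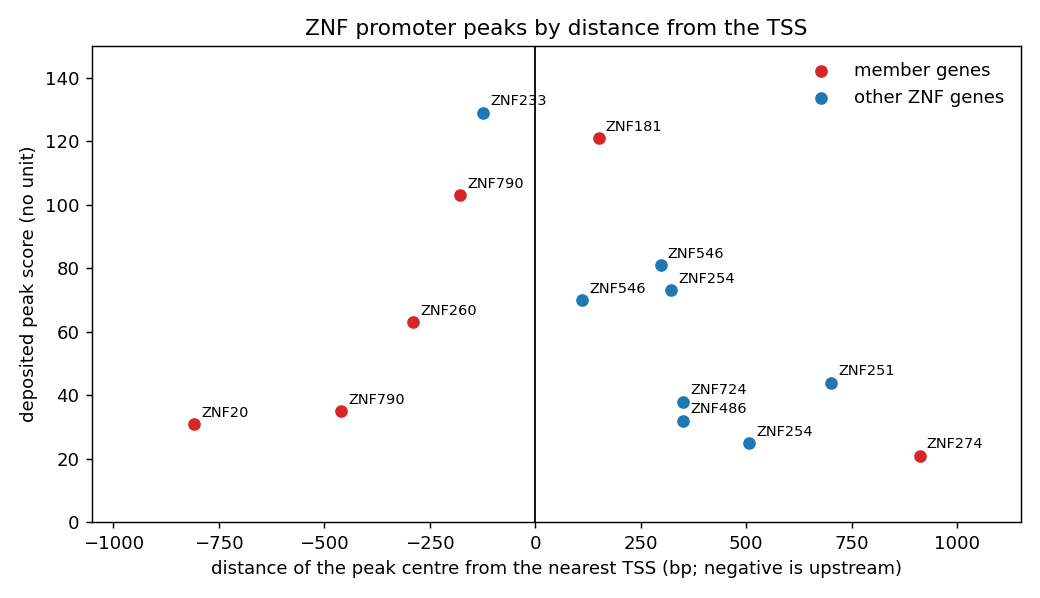
Score (y axis, no unit) of the 14 promoter peaks of ZNF genes against the distance of the peak centre from the nearest TSS (x axis, bp, negative upstream), 1 point per peak. Member peaks (red) lie on both sides from 809 bp upstream to 911 bp downstream, and 7 of the 8 peaks of other ZNF genes (blue) lie 111 to 701 bp downstream.

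The nearest-TSS name left out some ZNF promoters. In the authors' promoter class, 3 further peaks carried a ZNF transcript but another gene's name. One of score 83 lay at ZNF566, 139 bp downstream of the antisense gene's TSS (chr19:36980600-36980736). One of score 69 lay at ZNF230, 131 bp downstream of the TSS of ZNF230-DT (chr19:44506776-44507007). One of score 50 lay at ZNF473, 122 bp downstream of the VRK3 TSS (chr19:50528454-50528560). With these, 14 ZNF genes had a promoter peak, 13 of them on chromosome 19. Outside this count, a peak of score 103 lay 146 bp downstream of the ZNF232-AS1 TSS (chr17:5015301-5015452), in exon 1 of 3 of that non-coding gene, beside the divergent start of ZNF232. It scored higher than the 3 peaks under other names, and as high as the stronger ZNF790 peak. The scores of the 3 lay within the range of the members' promoter peaks, and ZNF566 is the direct neighbour of ZNF260.

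By gene order in RefSeq, the 246 ZNF genes fell into 18 runs along the chromosome, where neighbours in a run had at most 10 other protein-coding genes between them. Members stood in 5 runs: ZNF260 and ZNF790 shared one, and the other 4 members stood in one each. ZNF20 was the only one of 25 ZNF genes in its run to be nearest to a peak. ZNF181 stood in a short run of 5, between ZNF302 and ZNF599, and was again the only one. The run of ZNF43 held 39 ZNF genes, with promoter peaks at ZNF486, ZNF724 and ZNF254 but not at ZNF43. A run of 39 ZNF genes from ZNF175 to ZNF331 was nearest to no peak.

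The run of 26 ZNF genes that holds ZNF260 and ZNF790 had the most member peaks. Those 4 peaks spanned 310444 bp, with 5 protein-coding genes between the pair and no other peak among them. The ZNF566 peak lay next to this stretch, so ZNF566, ZNF260 and ZNF529 held peaks as 3 neighbours in gene order.

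ZNF274 shares its run of 52 ZNF genes with ZNF416 itself, 23 protein-coding genes apart, 18 of them ZNF genes. ZNF416 was nearest to no peak. In this run ZNF274 and ZNF8 were the ZNF genes nearest to a peak, and ZNF274 was the only one with a promoter peak (1 of 52 genes, 1.92%). Its 2 peaks were part of the last 6 peaks of the chromosome, which lay within 137899 bp. Before them came peaks of score 28 and 26 in the 3′ UTR and intron 3 of ZNF329, both credited to ZSCAN18. After them came peaks of score 104 and 32 in intron 6 of ZNF544, on an AluY repeat, both credited to ZNF8. Beside the score of 104, the other 5 scores ran from 21 to 32.

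**Figure D3:**
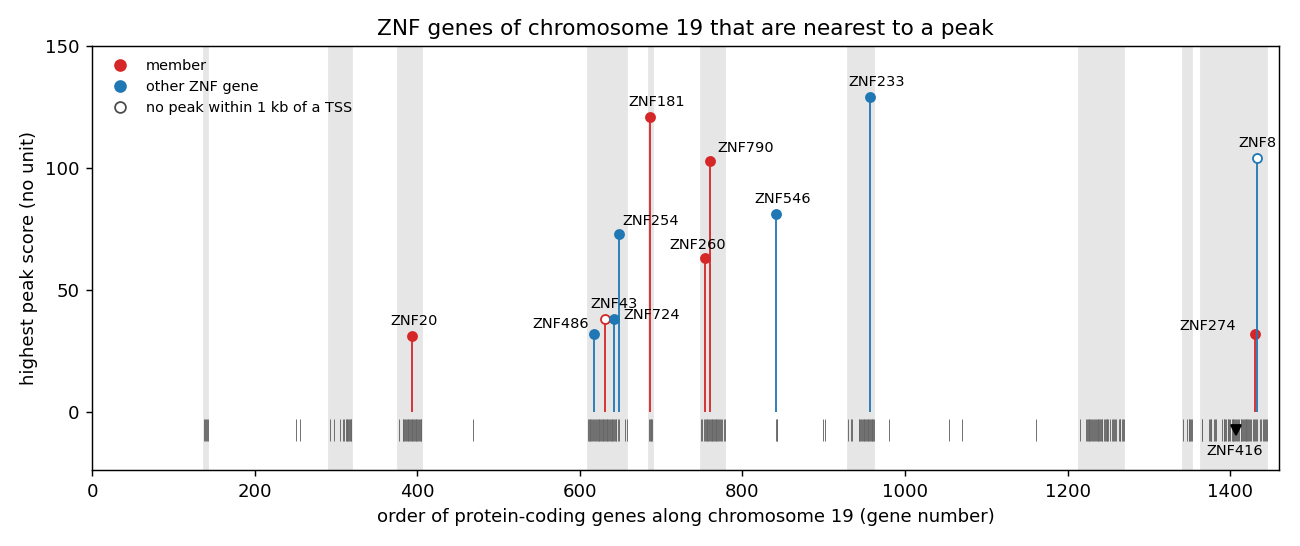
Highest score (y axis, no unit) of each chromosome 19 ZNF gene that is nearest to a peak, against its place in the order of protein-coding genes (x axis, gene number); ticks below mark all 246 ZNF genes, shading marks runs of 5 or more, and open points have no peak within 1 kb. The 6 members (red) stand in 5 runs, with ZNF260 and ZNF790 in the same one, and ZNF274 lies in the run of ZNF416 (triangle).

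Genes for partners and relatives of KRAB zinc finger proteins were counted against the 1.34% of all protein-coding genes with a promoter peak. Of 26 genes of the KRAB corepressor machinery, 1 had one, 3.85% (exact Clopper-Pearson 95% interval 0.0973 to 19.6): DNMT1, the maintenance DNA methyltransferase gene, with a score of 109 at 486 bp downstream (chr19:10304944-10305343). TRIM28 and SETDB1 were nearest to no peak. Among zinc finger genes under other names, ZSCAN genes had promoter peaks at 0 of 21, ZKSCAN genes at 0 of 7, ZBTB genes at 1 of 42 (ZBTB25, score 91) and genes named ZFP and a number at 1 of 21 (ZFP64, score 56). The last list goes by name and includes ZFP36, whose fingers are of the CCCH kind and bind RNA. The exact Clopper-Pearson intervals reached 16.1% for ZSCAN, 41.0% for ZKSCAN, 12.6% for ZBTB and 23.8% for the ZFP names, so each holds the share over all genes.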

How the data were processed

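FLAG ChIP and input libraries entered only through 1 deposited peak list. The submitters' processing notes name hg19 and, without versions or roles, HOMER, MACS2, Bowtie2, deepTools and Picard. Per the file headers, HOMER annotated a narrow peak list freed of blacklisted regions. The handling of replicates and input is not given in the sources used here. Each peak has a deposited score, whole and of unstated scale, and a deposited signed distance in bp from its centre to the nearest TSS.

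Peaks were selected by gene name, ranked by score (ties at the best rank) and called promoter peaks within 1 kb of a TSS. The members and lists were chosen with earlier results of these data known. ZNF genes are protein-coding genes named ZNF and a number, 509 in RefSeq (GRCh38.p14), without read-through genes. RefSeq gave names, transcript hosts, gene order and promoter windows, which 6 of 6 members matched. Named genes are all members, other ZNF genes with peaks, their hosts and neighbours, and list genes with a peak. Counts were made in Python 3.11.15 with pandas 2.3.3 and scipy 1.17.1. The classification was tested on simulated data.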

Additional observations from a re-analysis of the deposited data

How the results depend on the processing

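No paired analysis was possible because the deposited list gives no value per library, so neither a replicate block nor a fit without 1 replicate could be made. The number of members with a promoter peak, 5, fell to 3 within 500 bp, to 3 by the authors' promoter class, to 3 when a score of at least the list's median was asked for and to 2 with its upper quartile. It was 5 within 5 kb and 6 at any distance. For other ZNF genes the count of 6 became 16 at any distance, 1 by the promoter class, 3 with the median score as a limit and 1 with the upper quartile, and it was 5 within 500 bp and 8 within 5 kb. With promoter-class peaks also counted for the gene of their transcript, chosen after seeing the data, the counts were 5 and 9. The promoter class and the score limits hold fewer peaks by construction. The median rank of the members' strongest peaks, 869, was 882.5 with mean ranks for ties, 660 on chromosomes 1 to 22 and X, and 97 among promoter peaks only, a shorter list that leaves 4 members, since the strongest peaks of ZNF43 and ZNF274 lay outside promoters. The median scores stayed within 1.5 times under the 3 alternatives tried. Members stood in 5 runs also at limits of 5 and 20 genes. The 2 ZNF790 peaks belong to a gene with a head-to-head start within 1 kb, also with a limit of 5 kb. These peaks stand at another ZNF790 start, not at the promoter shared with ZNF345. The planned count of zinc fingers was not run, since protein sequences were not analysed here. Read depth, and with it the error of each score, is unknown.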

Other observations

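Several ZNF promoters carried 2 peaks side by side. Beside the ZNF790 pair with its gap of 117 bp, pairs stood at ZNF254 with a gap of 67 bp and at ZNF546 with a gap of 67 bp. Of the 14 ZNF promoter peaks, 6 had another peak within 200 bp, 42.9%. Among the 329 promoter peaks of chromosomes 1 to 22 and X this was so for 35, or 10.6%. The pattern was noticed in these data, the 6 peaks belong to 3 genes, and it was not tested. The pair credited to ZNF8 on an AluY repeat had a gap of 70 bp and scores of 104 and 32.

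Final exons of C2H2 zinc finger genes, which usually encode the fingers, held 4 of the 24 peaks that lay in the last exon of a transcript. These were the peak in ZNF529 credited to ZNF260 (score 27), one in ZFP37 (score 50), and peaks in the 3′ UTR of ZNF329 (score 28) and of ZNF655 (score 54). The 3′ UTR peaks are annotated outside the coding sequence, so they are not on the part that encodes fingers. How much of all last-exon sequence belongs to such genes was not analysed.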
